A study of Mus musculus with 6 samples.

Results

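The genes described here are 10 regulators of thermogenesis and mitochondrial gene expression, of 21887 protein-coding genes placed on the mouse genome. They were chosen by name: the coactivators Ppargc1a and Ppargc1b, the browning factor Prdm16, the uncoupling protein genes Ucp1, Ucp2 and Ucp3, and the mitochondrial regulators Nrf1, Tfam, Gabpa and Gabpb1. The study mapped tagged OTUD3, a deubiquitinase of the ovarian tumour family, on chromatin by ChIP-seq. Mice received AAV2-Otud3-Flag intraperitoneally, and epididymal fat, a white depot labelled Adipocyte, was taken 4 weeks later. All 3 libraries used here (replicates 1, 3 and 4) were immunoprecipitated with an anti-Flag antibody from mice given the same vector, and the genotype label names genomic DNA only, with no strain or age. The 3 matching inputs were not analysed here, and no group without the vector entered. The labels do not say that the libraries came from separate animals, so the spread between them may be technical. All positions are on mm10.

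PGC-1α and PGC-1β, the products of Ppargc1a and Ppargc1b, are coactivators that bind nuclear receptors and other transcription factors and raise the number and respiratory capacity of mitochondria. PRDM16 is a zinc finger regulator that drives the brown and beige fat programme, in which UCP1 lets protons leak across the inner mitochondrial membrane and so releases heat. NRF1 and the GABP complex (GABPα with a GABPβ partner) activate nuclear genes of the respiratory chain, and TFAM, one of their targets, packages mitochondrial DNA and starts its transcription.

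The lists held 11871, 6531 and 13496 distinct peaks in replicates 1, 3 and 4, and their median summit rested on 4, 6 and 5 fragments. A q below 0.05 was reached by 0.337%, 0.398% and 0.496% of them. Fold, p and q are the authors' values from their peak caller, the fold being enrichment over the local background. Peak positions carry no expression values, so the cell types in the tissue were not checked.

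In the RefSeq promoter table of build GRCm38.p6, which lists 250 bases before to 50 after a start, 9 of the 10 genes had 11 windows, and 0 of 11 were overlapped by a peak of any list. Of 21263 such windows of protein-coding genes, a peak overlapped 0.611%, 0.118% and 0.226% in replicates 1, 3 and 4, so none among 11 is near that background. Ppargc1b was not matched. The nearest summits lay upstream of Ppargc1a in replicate 3, at 1.48 kb, and inside Ucp2 in replicate 4, at 1.615 kb, and the sequence just upstream of those starts is shown for that reason. The first is chr5:51567726-51567975 on the minus strand and the second is chr7:100493108-100493336 on the plus strand, ending at the annotated edge of the gene. Both are in lower case throughout, because none of the motifs searched was found in them.
Ppargc1a: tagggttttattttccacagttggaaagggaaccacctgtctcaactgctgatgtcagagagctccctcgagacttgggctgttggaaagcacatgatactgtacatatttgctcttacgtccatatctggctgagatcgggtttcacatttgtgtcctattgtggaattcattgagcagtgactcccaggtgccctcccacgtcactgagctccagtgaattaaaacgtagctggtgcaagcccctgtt
Ucp2: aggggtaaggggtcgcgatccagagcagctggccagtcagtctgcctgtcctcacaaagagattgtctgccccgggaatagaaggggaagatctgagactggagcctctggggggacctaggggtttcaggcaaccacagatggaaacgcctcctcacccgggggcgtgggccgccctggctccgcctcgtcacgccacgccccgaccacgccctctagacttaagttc

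A summit within 2 kb of a listed start was thus found for 0, 1 and 1 of 9 genes in replicates 1, 3 and 4, beside 4.10%, 1.62% and 2.04% of 17492 protein-coding genes with a listed start. This limit lies just above the distances of the summits named above. Within 1 kb it was 0 of 9 in each list, beside 2.38%, 0.686% and 0.909%. Within 5 kb it was again 0, 1 and 1, beside 8.58%, 3.89% and 6.09%. Within 10 kb it was 1, 2 and 3 of 9, beside 15.2%, 7.52% and 12.2%. Ppargc1a had its nearest summit 254 kb from the start in replicate 1 and 27.4 kb away in replicate 4. Ucp2 had its nearest summit at 8.86 kb in replicate 1 and at 85.9 kb in replicate 3. So neither start had a nearby summit in more than 1 list.

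Of 5 motifs searched on both strands of the 300-base windows, only the GABP core CCGGAAG was found, in Tfam and Gabpa, or 2 of 11 windows. It is held by 8.86% of all 32851 promoters listed, a set not limited to the 21263 windows of protein-coding genes. The 10-base palindrome of NRF1 (0.971% of promoters), the cyclic AMP response element TGACGTCA (1.79%), the estrogen-related receptor motif TCAAGGTCA (0.423%) and the PPAR/RXR direct repeat (0.0396%) were in 0 of 11. The 2 GABP matches are printed with the motif in capitals, since they lie in the promoters of a GABP target and of a GABP subunit gene. The Tfam match begins 47 bases before the start, within chr10:71238073-71238102 on the minus strand, and the Gabpa match, read as its reverse complement, begins 93 bases before the start, within chr16:84835020-84835049 on the plus strand. Each is a match of letters and was not tested for binding.
Tfam: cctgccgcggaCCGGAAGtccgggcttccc
Gabpa: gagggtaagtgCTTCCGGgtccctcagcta

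Taken over each gene with 50 kb either side, each of the 10 genes had at least 1 Flag-OTUD3 peak in some list, beside 80.0% of all protein-coding genes, and these peaks ranked near the middle of their lists. There were 40 distinct peaks, 15, 5 and 20 in replicates 1, 3 and 4, of which 25 had their summit inside one of the genes (9, 3 and 13). The 9 merged windows cover 2229.7 kb and held 0.673, 0.224 and 0.897 summits per 100 kb, against 0.69998, 0.355 and 0.629 over all protein-coding gene windows. The windows of all genes were not merged, so summits and bases in overlapping windows were counted there once for each gene. The mean was 0.598 ± 0.343 (SD, n = 3) against 0.561 ± 0.182, a difference smaller than the spread between libraries. Replicate 4 lay above its level over all genes and replicates 1 and 3 lay below.

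Individual peaks were small. Their fold ran from 2.41 to 4.53 (median 3.07), from 3 to 10 fragments at the summit (median 5), and 0 of 40 had a q below 0.05. The lowest q was 0.0509 and the median 0.875. Within its own list the median peak stood at percentile 51.3 of fold, and 21 of 40 lay above the middle of their list. In replicate 1 the median percentile was 36.2, in replicate 3 it was 49.4 and in replicate 4 it was 64.6.

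**Figure D1:**
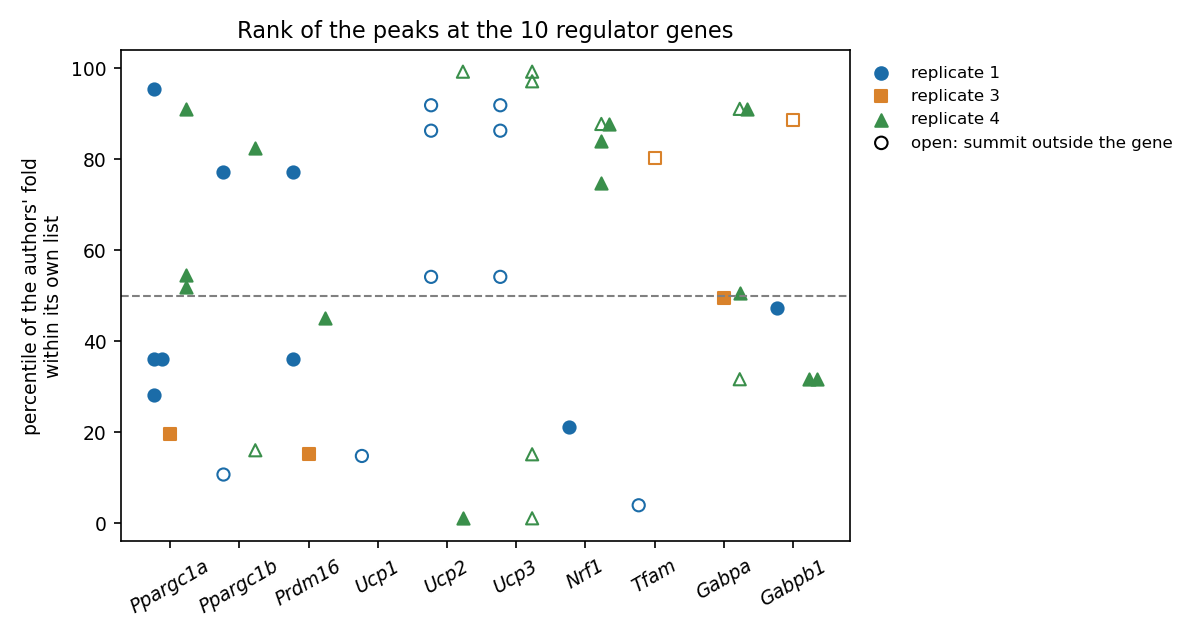
Percentile of the authors' fold within its own list (vertical axis, 0 to 100) for each peak in the window of each gene (horizontal axis), by library; filled symbols are summits inside the gene, open symbols lie outside it, equal values are set side by side, and the dashed line marks the middle of a list. The peaks of Ucp2 and Ucp3 that reach the top of replicate 4 are open symbols, in a neighbouring gene, and the summit inside Ucp2 is near the bottom at percentile 1.04.

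Counting genes, a summit in the gene or its 50 kb surroundings was found for 9, 5 and 8 of the 10 in replicates 1, 3 and 4, beside 55.4%, 37.2% and 54.4% of all protein-coding genes. Among the 200 genes nearest in length to each, averaged over the 10, the shares were 65.5%, 47.2% and 62.9%. Windows with a summit in all 3 lists were those of Ppargc1a, Prdm16 and Gabpb1, or 3 of 10, beside 17.1% of all genes and 27.7% of genes of like length. Leaving out replicates 1, 3 and 4 in turn, 4, 7 and 4 windows had a summit in both remaining lists, beside 24.1%, 34.6% and 25.3% of all genes and 34.5%, 45.9% and 35.3% of genes of like length. Inside the gene, 5, 3 and 7 of the 10 had a summit, beside 19.5%, 12.7% and 19.3% of all genes and 33.3%, 25.3% and 34.6% of genes of like length. Ppargc1a and Prdm16 had one in all 3 lists, or 2 of 10, beside 3.80% of all genes and 13.2% of genes of like length. In the 2 lists left without replicates 1, 3 and 4 in turn, 3, 5 and 2 genes had one in both, beside 6.19%, 8.37% and 5.93% of all genes and 17.4%, 20.9% and 15.7% of genes of like length. A summit inside in at least 1 list was found for 7 of 10, beside 34.8% of all genes and 52.3% of genes of like length. The 3 genes without any were Ucp1, Ucp3 and Tfam.

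**Figure D2:**
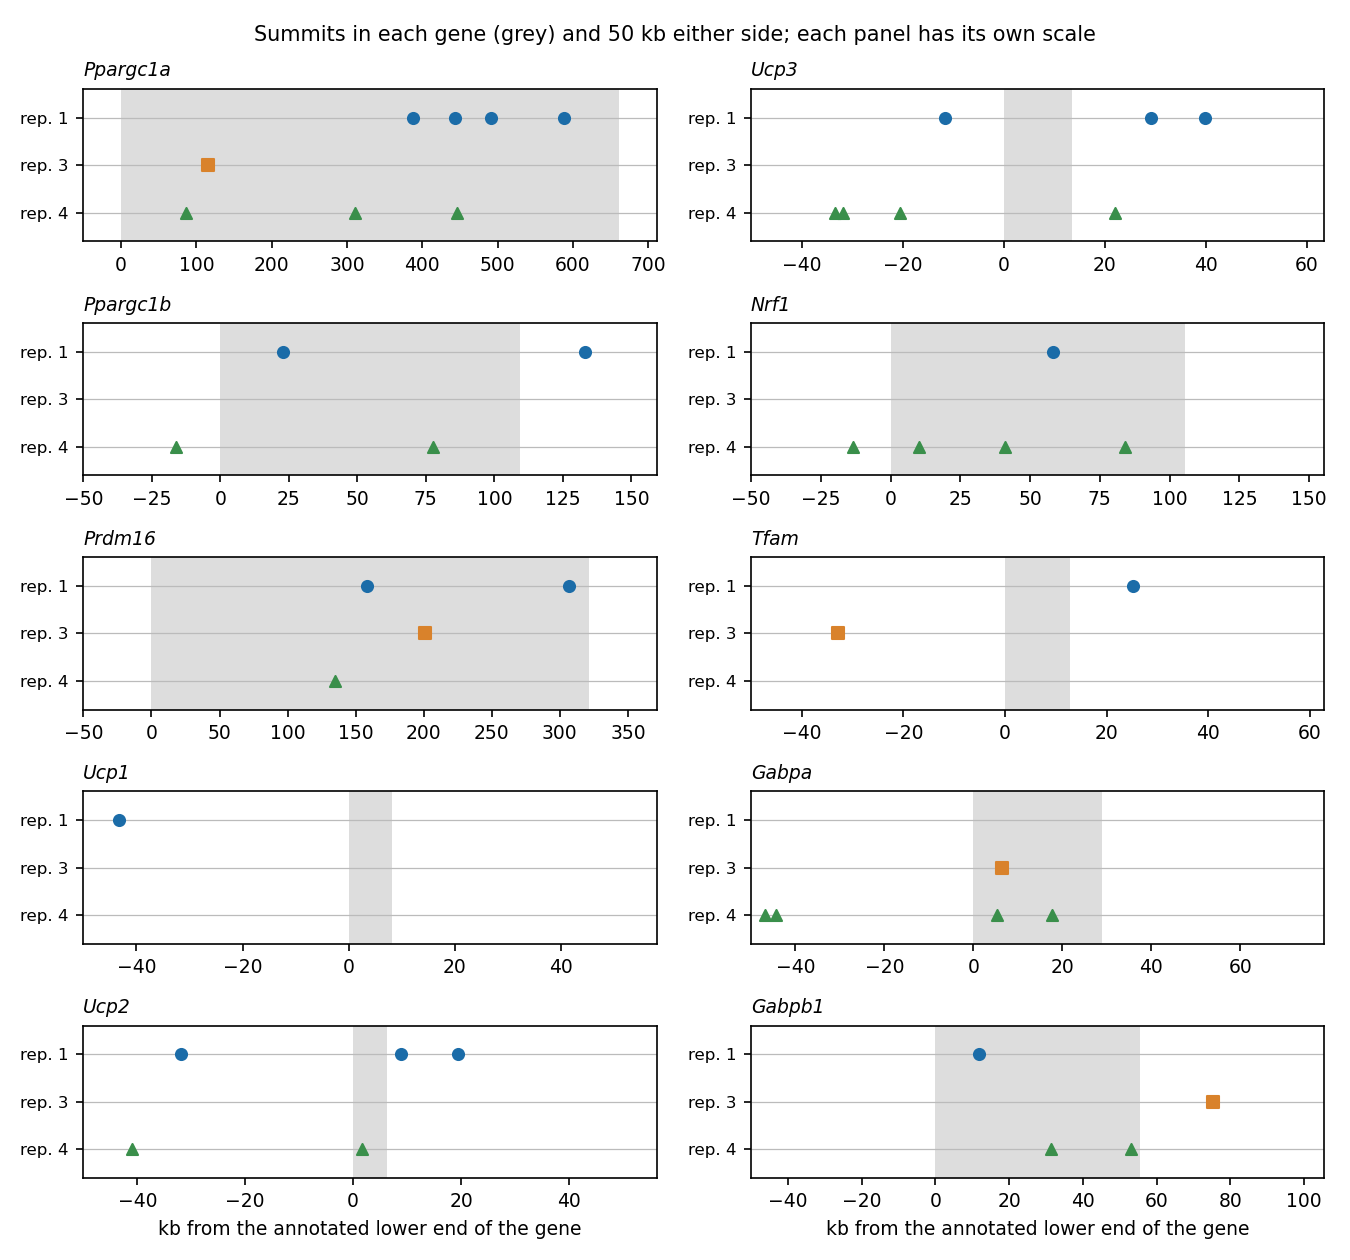
Position of every summit in each gene and 50 kb either side, in kb from the annotated lower end of the gene (horizontal axis, own scale in each panel); rows are the 3 libraries and the grey band is the gene. Ppargc1a and Prdm16 have all of their summits inside the gene, and Ucp1, Ucp3 and Tfam have none inside.

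Ppargc1a, the coactivator gene with the longest annotated range of the 10 (chromosome 5, 51454249 to 52115853, 662 kb), held 4, 1 and 3 summits in replicates 1, 3 and 4, all of them inside the gene. That is 0.525, 0.131 and 0.394 per 100 kb of window, a mean of 0.350 ± 0.201 (SD, n = 3). Replicate 1 was the highest and replicate 3 the lowest. The 200 genes nearest in length had a median of 0.303, and 60.5% of them lay lower, so Ppargc1a stood near the middle of genes of its length. A summit inside the gene in all 3 lists was found for 62.5% of those genes.

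The summits of Ppargc1a lay mostly outside the stretch that runs to the start in the promoter table, but most of the annotated range lies outside that stretch too. That start, at 51567725, leaves 113 kb of the gene below it and 548 kb of annotated range above it, on the upstream side. The upstream side held 4, 1 and 2 of the summits in replicates 1, 3 and 4, and the lower stretch held 0, 0 and 1. The gene ended at the listed start, with 50 kb either side, gave 0, 0.468 and 0.468 per 100 kb, a mean of 0.312 ± 0.270 (SD, n = 3), a range chosen after the data were seen. This shorter range held no summit in replicate 1, in the gene or in its window. The place of Ppargc1a among genes with a summit in every list thus rests on its full annotated range. Its strongest peak was in replicate 1 at chr5:52042730-52042974, with a fold of 4.27 from 5 fragments (q = 0.342), at percentile 95.4 of its list and 475 kb upstream of the start. The peak closest to the start, chr5:51569115-51569427 in replicate 3, had a fold of 2.62 from 6 fragments (q = 1) and stood at percentile 19.6. Peaks of replicates 1 and 4 came within 2.205 kb of each other, at chr5:51898021-51898265 (fold 2.84) and chr5:51900214-51900448 (fold 3.81), and did not overlap.

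Ppargc1b, the second coactivator gene (chromosome 18, 61291445 to 61400756), had 2, 0 and 2 summits in its window in replicates 1, 3 and 4, or 0.956, 0 and 0.956 per 100 kb (mean 0.637 ± 0.552 SD, n = 3). One summit each of replicates 1 and 4 lay inside the gene, with folds of 3.55 from 4 fragments (q = 0.651) and 3.58 from 6 fragments (q = 0.644). They were 55.01 kb apart. The others lay outside, at 24.0 kb in replicate 1 with a fold of 2.66 and at 16.1 kb in replicate 4 with a fold of 2.55, the latter within Pde6a, a phosphodiesterase gene of rod photoreceptors. Of genes of like length, 61% had fewer summits over the 3 lists than the 4 of Ppargc1b, 12% had as many and 27% had more.

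Prdm16 (chromosome 4, 154316122 to 154637360, 321 kb) held 2, 1 and 1 summits in replicates 1, 3 and 4, all inside the gene. The density was 0.475, 0.237 and 0.237 per 100 kb, a mean of 0.317 ± 0.137 (SD, n = 3), below the median of 0.381 in genes of like length, of which 42% lay lower and 58% higher. Over the gene body alone the mean was 0.415 ± 0.180 per 100 kb (SD, n = 3), above their median of 0.361, and 55.5% of them lay lower. The side of the median thus depended on the window. A summit inside in all 3 lists was found for 43% of those genes. The highest of its peaks, chr4:154474341-154474766 in replicate 1, had a fold of 3.55 from 4 fragments (q = 0.651). The other peak of replicate 1, chr4:154622330-154622698, lay 14.3 kb downstream of the listed start, also within the noncoding gene Gm52689, with a fold of 2.84 from 3 fragments. Replicate 3 had its peak at chr4:154517239-154517671 (fold 2.61 from 5 fragments) and replicate 4 at chr4:154450227-154450663 (fold 2.97 from 5 fragments). Summits of different lists in Prdm16 were never closer than 23.9 kb. This is not particular to Prdm16. Of the 24197 peaks in protein-coding gene windows, 0.851% overlapped another list and 5.09% had another list's summit within 2 kb.

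The 5 genes whose 3 densities were most like those of Ppargc1a, by the summed difference over the 3 libraries among the 200 nearest in length, were Ctnnd2, Arhgap15, Rims1, Ryr2 and Kcnq5, with differences of 0.105 to 0.186 per 100 kb. For Prdm16 they were Focad, Cmss1, Asap1, Sdk2 and Ksr2, with 0.0111 to 0.220, and the first 4 of these had the same 2, 1 and 1 summits. This likeness rests on 3 libraries and few summits.

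Ucp1, the gene of the thermogenic uncoupling protein (chromosome 8, 83290348 to 83298456), had 1, 0 and 0 summits in its window and none inside. Its density was 0.925, 0 and 0 per 100 kb (mean 0.308 ± 0.534 SD, n = 3), the lowest mean of the 10 genes. The 1 peak lay 43.4 kb away in replicate 1, within Tbc1d9, a gene of the TBC domain family, with a fold of 2.73 from 3 fragments (q = 0.992). Of genes of like length, 60.5% had more summits, 22.5% had the same and 84.5% had no summit inside in any list.

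Ucp2 and Ucp3 encode carrier proteins related to UCP1, the first made in many tissues and the second mainly in skeletal muscle and brown fat. They lie 6.904 kb apart on chromosome 7 (100493337 to 100499629 and 100472991 to 100486432), so their windows share most peaks. Ucp2 had 3, 0 and 2 summits in replicates 1, 3 and 4, and Ucp3 had 3, 0 and 4. Together these were 7 different peaks, 5 of them counted for both genes. Replicate 3 had none at either gene.

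The density at Ucp3 was 2.64, 0 and 3.53 per 100 kb (mean 2.06 ± 1.84 SD, n = 3) and that at Ucp2 was 2.82, 0 and 1.88 (mean 1.57 ± 1.44 SD, n = 3), the highest means of the 10 genes. Fewer summits were held by 98% of the genes of Ucp3's length and by 90% of those of Ucp2's length. No summit lay in Ucp3 itself. The gene C2cd3, which encodes a centriole protein, held 1 of the 3 peaks of replicate 1 and 3 of the 4 of replicate 4. Dnajb13, a heat shock protein 40 family gene, held another of replicate 1. The strongest, chr7:100452164-100452436 in C2cd3 in replicate 4, had a fold of 4.53 from 10 fragments (q = 0.0509) at percentile 99.3 of its list, and lay 20.6 kb from Ucp3 and 40.9 kb from Ucp2. Between genes, 2.59 kb beyond the end of Ucp2, replicate 1 had a peak at chr7:100502011-100502412 with a fold of 4.20 from 5 fragments (q = 0.342). The summit inside Ucp2, at chr7:100494863-100495097 in replicate 4, had a fold of 2.41 from 4 fragments (q = 1).

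Nrf1, the gene of nuclear respiratory factor 1 (chromosome 6, 30047985 to 30153458), had 1, 0 and 4 summits in replicates 1, 3 and 4, or 0.487, 0 and 1.95 per 100 kb (mean 0.811 ± 1.01 SD, n = 3). Its window touches no other protein-coding gene. Replicate 4 set this level, with 3 of its 4 summits inside the gene. Their folds were 3.64, 3.77 and 3.27, each from 6 fragments, with q from 0.644 to 0.752, and the fourth, 13.5 kb outside, had a fold of 3.77. The peak of replicate 1, chr6:30106144-30106388, had a fold of 2.79 from 4 fragments and lay 17.2 kb from the nearest summit of another list. Of genes of like length, 75.5% had fewer summits than its 5.

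Tfam, the gene of the mitochondrial transcription factor A (chromosome 10, 71225468 to 71238328), had 1, 1 and 0 summits in its window and none inside. That is 0.886, 0.886 and 0 per 100 kb (mean 0.591 ± 0.512 SD, n = 3). The peak of replicate 1 lay 12.4 kb away with a fold of 2.53 from 3 fragments, and that of replicate 3 lay 32.9 kb away in the noncoding gene Gm34328 with a fold of 3.51 from 7 fragments (q = 0.745). Of genes of like length, 39% had fewer summits and 41.5% had more. The promoter with the GABP match printed above thus had its nearest summit 12.7 kb from the start.

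Gabpa, the gene of the DNA-binding subunit of GABP (chromosome 16, 84834891 to 84863783), had 0, 1 and 4 summits in replicates 1, 3 and 4, or 0, 0.776 and 3.10 per 100 kb (mean 1.29 ± 1.62 SD, n = 3). Inside the gene there were 0, 1 and 2. Replicate 3 had a peak at chr16:84841118-84841430 with a fold of 2.998 from 7 fragments (q = 0.950), and replicate 4 one at chr16:84840044-84840320 with a fold of 3.02 from 5 fragments (q = 0.875). These summits were 1.08 kb apart, the closest pair of different lists at the 10 genes, and lay 6.17 and 5.09 kb downstream of the listed start. The second summit of replicate 4 inside the gene had a fold of 3.81 from 6 fragments. Its other 2 summits lay 44.3 and 46.8 kb away in Jam2, a junctional adhesion molecule gene. Over the window, 83% of genes of like length had fewer summits over the 3 lists, 6.5% had as many and 10.5% had more. Over the gene body alone the mean was 3.46 ± 3.46 per 100 kb (SD, n = 3), higher than in 97.5% of genes of like length. That body value rests on 1 and 2 summits in replicates 3 and 4, while replicate 1 had none. Of the genes of like length, 62% had no summit inside in any list. By the same body measure, the share of like-length genes that lay lower was 93.5% for Ucp2, 92% for Gabpb1 and 88.5% for Nrf1. It was 71.5% for Ppargc1a and 55.5% for both Ppargc1b and Prdm16, while Ucp1, Ucp3 and Tfam had no summit inside.

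Gabpb1, the gene of the partner subunit that carries the activation function (chromosome 2, 126628907 to 126684435), had 1, 1 and 2 summits in replicates 1, 3 and 4. The density of 0.643, 0.643 and 1.29 per 100 kb (mean 0.857 ± 0.371 SD, n = 3) was above 0 in every library, as at Ppargc1a and Prdm16. Inside the gene lay 1, 0 and 2 of these summits. The peak of replicate 1, chr2:126640770-126641314, had a fold of 3.16 from 4 fragments (q = 0.651). Both peaks of replicate 4 had a fold of 2.72 from 4 fragments (q = 1). Replicate 3 had its peak 19.9 kb outside the gene, with a fold of 3.68 from 7 fragments (q = 0.745). Of genes of like length, 70.5% had fewer summits over the 3 lists and 18.5% had more.

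**Figure D3:**
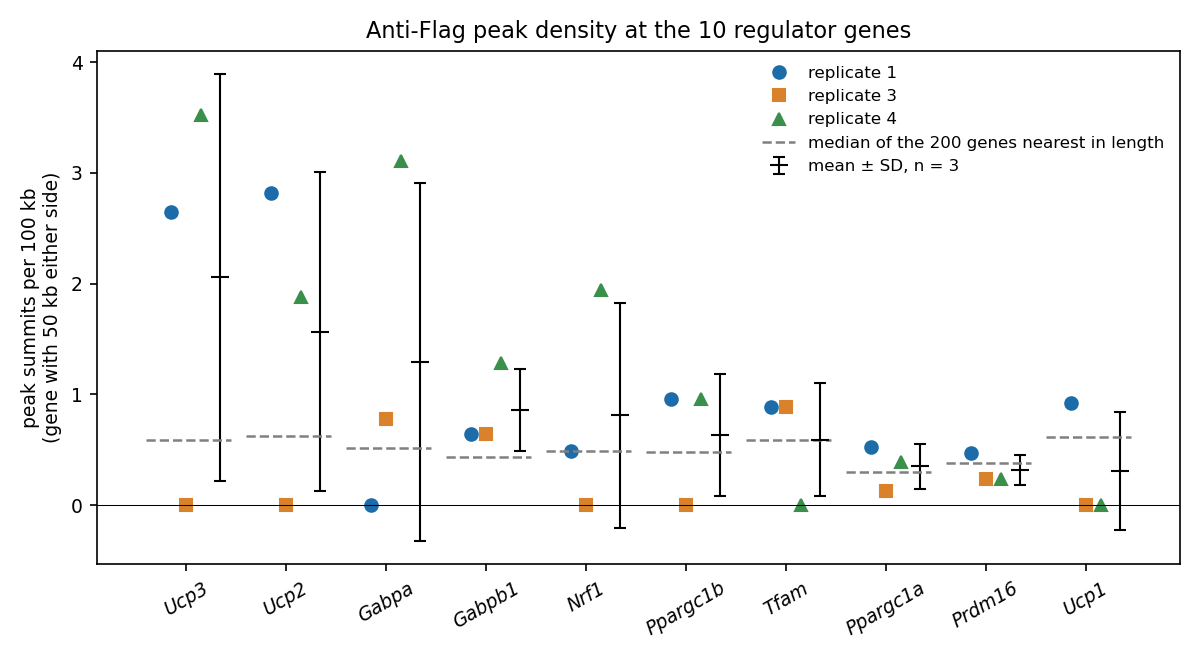
Peak summits per 100 kb of the gene with 50 kb either side (vertical axis) at each gene, ordered by mean (horizontal axis); coloured symbols are the 3 libraries, the black bar is the mean with its SD (n = 3), and the dashed line is the median of the 200 genes nearest in length. Replicate 3 is at 0 for Ucp3, Ucp2, Nrf1, Ppargc1b and Ucp1, and the SD at Ucp3, Ucp2 and Gabpa is wider than the gap to the next gene.

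In the order of mean density, from Ucp3 through Ucp2, Gabpa, Gabpb1, Nrf1, Ppargc1b, Tfam, Ppargc1a and Prdm16 to Ucp1, no neighbours differed beyond their spread. Their differences were 0.00820 to 0.489 per 100 kb, each smaller than the larger SD of the pair, with exact permutation p from 0.6 to 1 (two-sided, 3 values against 3, smallest possible p 0.1, adjusted p = 1 over 10 comparisons). The highest and the lowest, Ucp3 and Ucp1, differed by 1.75 per 100 kb (exact permutation p = 0.4, adjusted p = 1). The values of all genes come from the same 3 libraries, so each difference was also taken within its library, a test added after the data were seen. Ucp3 minus Ucp1 was 1.72, 0 and 3.53 per 100 kb in replicates 1, 3 and 4, higher at Ucp3 in 2 of 3 libraries. The exact sign-flip permutation p was 0.5 (adjusted p = 1). A difference of 0 has no sign to flip, so 0.5 was the smallest p possible for this pair. Where no difference is 0 the smallest possible p is 0.25. For the neighbours the exact sign-flip permutation p ran from 0.75 to 1, and Ucp2 and Ucp3 have 5 peaks in common. With each density divided by its library's level over all gene windows, Gabpa and Ucp2 exchanged places, as did Ppargc1b and Tfam, and the other 6 kept theirs.

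In the negative binomial fit of summits on window length over all genes, 0 of the 10 genes passed in any list, where 0% of 21887 genes were called higher and 0% lower after Benjamini-Hochberg adjustment. A lower call was hardly possible, because few summits were fitted per window, so its absence does not speak to depletion. Ucp1, with 0 summits in replicates 3 and 4 against 0.420 and 0.704 fitted, had a negative binomial p of 0.674 and 0.513. Before adjustment 577, 435 and 450 genes had a p below 0.05 in replicates 1, 3 and 4, or 2.64%, 1.99% and 2.06%, and 0, 0 and 2 of the 10 regulators. The 2 were Ucp3, with 4 summits against 0.736 fitted (negative binomial p = 0.0136, adjusted p = 0.801), and Gabpa, with 4 against 0.829 (p = 0.0201, adjusted p = 0.801), both in replicate 4. In replicate 3 the same genes had 0 and 1 summits against 0.436 and 0.483 fitted. Ppargc1a had 4, 1 and 3 summits against 2.83, 1.97 and 4.32 fitted, and Prdm16 had 2, 1 and 1 against 1.99, 1.23 and 2.49. Windows of neighbouring genes share peaks, and the fit treats them as separate.

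**Figure D4:**
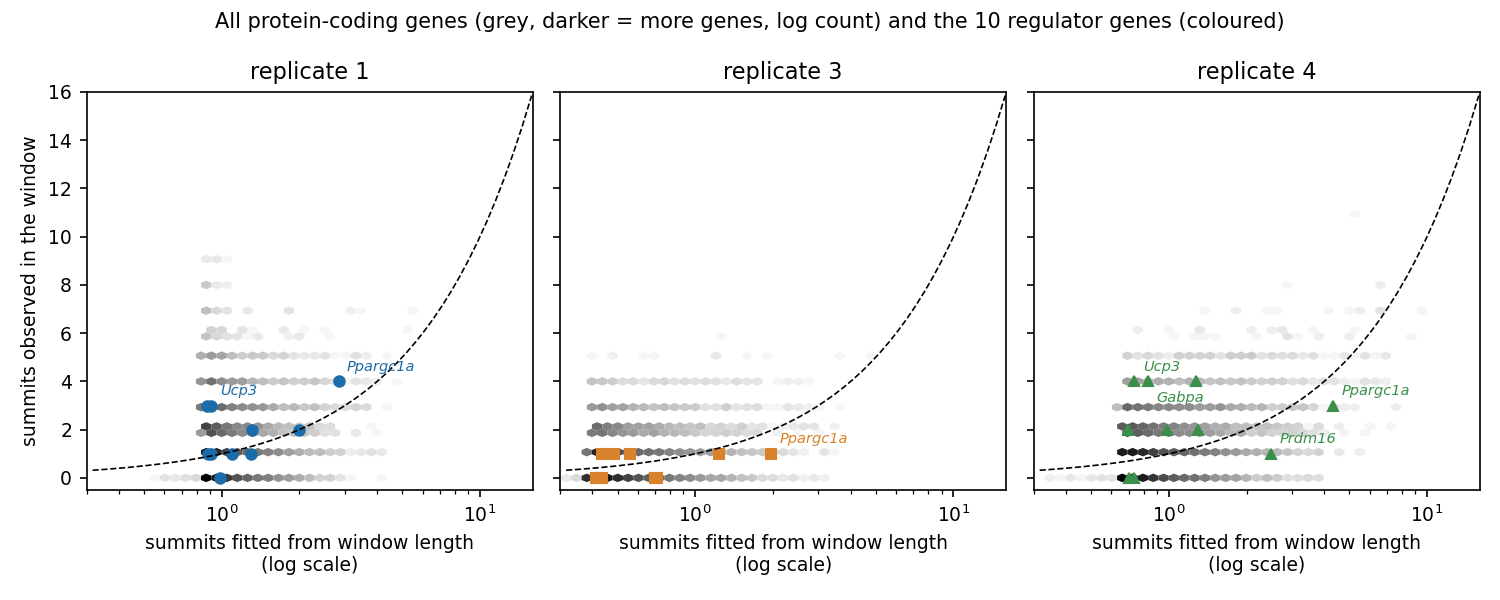
Summits observed in the window of each gene (vertical axis) against the number fitted from window length (horizontal axis, log scale) in each library; grey cells are all protein-coding genes, darker for more genes, coloured symbols are the 10 regulators and the dashed line marks equal values. Ucp3 and Gabpa, with 4 summits each in replicate 4, lie above the line among many other genes, and Ppargc1a, with 3, lies below it.

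No peak at the 10 genes was found in the same place in more than 1 list, which is near the background share of all peaks in gene windows. Of the 40 peaks, 0 overlapped a peak of another list by at least 1 bp, beside 0.851% of the 24197 peaks in protein-coding gene windows. Another list's summit lay within 1 kb of 0 of 40, beside 2.62%. With summits within 2 kb, a distance chosen after the data were seen, the Gabpa pair was the only one, or 2 of 40 peaks, beside 5.09%. The median distance from a peak to the nearest summit of another list was 22.3 kb.

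Another 62 genes of the pathway were counted in the same way. They were 30 regulators and markers of brown and beige fat, 27 genes of mitochondrial gene control and 5 mitochondrial carriers. A summit in the window was found for 36, 25 and 37 of 62 in replicates 1, 3 and 4, beside 55.4%, 37.2% and 54.4% of all protein-coding genes. Inside the gene one was found for 18, 8 and 12 of 62, beside 19.5%, 12.7% and 19.3%. The median density was 0.598 per 100 kb, beside 0.724 for the 10 regulators and 0.514 for all protein-coding genes. After adjustment 0 of 62 were higher and 0 lower in the negative binomial fit of each list, where a lower call was hardly possible. An unadjusted p below 0.05 was reached by 2, 1 and 1 of them. Ebf2, a transcription factor of the brown fat lineage, and Creb1, a cyclic AMP response factor, had a summit inside in all 3 lists, or 2 of 62 beside 3.80% of all genes, with 3, 2 and 1 inside Ebf2 and 1, 1 and 2 inside Creb1.

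The densest windows among these were those of Cebpb, Polg2, Pprc1, Gabpb2, Cox8b and Tefm. Cebpb, the gene of an early adipogenic factor that works with PRDM16, had 5, 3 and 1 summits in its window and none inside its 1.52 kb (mean 2.96 ± 1.97 per 100 kb, SD, n = 3). It did not pass the negative binomial fit in replicates 1, 3 and 4 (adjusted p = 0.720, 0.708 and 0.829). Polg2, the gene of the accessory subunit of the mitochondrial DNA polymerase, had 6, 0 and 2. Pprc1, the third gene of the PGC-1 family, had 3, 2 and 1, and Gabpb2, which encodes another GABPβ subunit, had 4, 0 and 3. Cox8b, a cytochrome c oxidase subunit gene used as a brown fat marker, had 3, 1 and 1, and Tefm, the gene of a mitochondrial transcription elongation factor, had 2, 2 and 1. In 10 of 62 windows there was no summit in any list, beside 20.0% of all genes. Among them were Prkaa1 and Prkaa2, which encode the catalytic subunits of AMP-activated kinase, and the carriers Slc25a14 and Slc25a27.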

How the data were processed

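Each immunoprecipitated library has 1 deposited peak list; the inputs were not used here. MACS2 2.1.0, BWA 0.7.12 and fastp 0.19.11 are named, with build mm10, in the submitters' processing notes. The authors' caller gave each peak a fold ratio over its local background, −log10 p and −log10 q values and a summit offset, and the deposited integer score restates the −log10 p. Replicates were not pooled by the authors, and no source used here says whether the inputs served as controls.

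Several summits of 1 interval were reduced to the one with the lowest p, and summits were placed in each RefSeq protein-coding gene (GRCm38.p6, the build that mm10 names) or within 50 kb. A negative binomial regression on log window length (statsmodels 0.14.6), 1 fit a library, gave a two-sided p per gene, with Benjamini-Hochberg adjustment over all 21887 genes. It was tested only on counts simulated from the fitted model, each gene drawn on its own, with some genes raised and none lowered. The simulated counts hold no peaks shared between neighbouring genes. Fragments at a summit were solved from fold and p, which a whole number matched within 0.001 on the log10 scale for 100% of peaks. Fragments are counts, so peaks of 3 to 10 carry a large counting error.

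Named genes were the 10 regulators, genes holding their summits, the 5 most like Ppargc1a and Prdm16, and, of the other pathway genes, those with a summit inside in all 3 lists, the 6 densest and 4 with none. The 10 genes and the lists were chosen with earlier results of these data known. Alternatives were other windows, peak limits, overlap rules, a Poisson fit and leaving out each library; a short Ppargc1a range, autosomes alone, differences within libraries and summits within 2 kb were chosen after seeing the data.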

Additional observations from a re-analysis of the deposited data

How the results depend on the processing

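Few fragments per peak and few peaks per gene limit every value above, and presence in all lists changed most with the processing. With 100 kb either side, 8 of the 10 windows had a summit in all 3 lists, beside 36.0% of all genes. The 10 genes are longer than most, with a median of 42.2 kb against 17.2 kb, and no share for genes of like length is given at this setting. The windows of Ucp2 and Ucp3 are also largely the same region. With 50 kb either side, Ppargc1a had a summit in all 3 lists only over its full annotated range, not when ended at its listed start. With a p of at most 0.001 or a fold of at least 4, 0 windows and 0 gene bodies had one; of all genes, 8.35% of windows and 2.15% of bodies did at the p limit and 0.0320% and 0.00914% at the fold limit. At the fold limit the median density of the 10 genes was 0. Leaving out each replicate gave 4 to 7 windows and 2 to 5 gene bodies with a summit in both lists left (of all genes, 24.1% to 34.6% and 5.93% to 8.37%), and a median density of 0.470 to 0.960 per 100 kb. In the fit over all genes, a Poisson model called 77 genes and 10 kb either side called 5 genes, both in replicate 1 and none of the 10; the other settings called 0 genes in each list, and no window lay near the pile-up blocks, so leaving these out changed nothing. Summits within 2 kb joined 2 of the 40 peaks, and the other overlap rules and leave-one-out settings 0. Single densities moved by more than 1 SD at 5 of 10 genes with the gene body alone, 5 of 10 at the fold limit, 2 of 10 with 10 kb either side and 1 of 10 at the p limit; the cause was not tested. With the library as a block, the exact sign-flip permutation p for the difference of 1.75 per 100 kb between Ucp3 and Ucp1 was 0.5. Without the block the exact permutation p was 0.4. The smallest possible p was 0.1 without the block. With the block it was 0.25, or 0.5 where the difference in a library was 0, as for Ucp3 and Ucp1. All of these are above the limit of 0.05. None of the 10 comparisons could be called by either test, so whether the block alters a call could not be judged. Pairing with the inputs was not possible here, because they were not used.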
